A study of Mus musculus with 2 samples.

Results

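Remote intergenic peaks are stretches of open chromatin that lie far from any protein-coding gene start. Here they were the replicate 1 DNase-seq peaks on chromosomes 1 to 19 that shared at least 1 bp with a replicate 2 peak, whose midpoint lay outside every protein-coding gene body and more than 100 kb from the nearest protein-coding transcription start site (TSS). There were 4516 of them, or 6.36% of the 71033 shared autosomal peaks, out of 97051 peaks of replicate 1 and 108010 of replicate 2 in all. The tissue was thymus from female B6CASTF1/J mice, an F1 hybrid of the strains C57BL/6J and CAST/EiJ, at 14 days of age. Both libraries belong to 1 group. The labels give them separate animal numbers but the same donor identifier, so the spread between them may be partly technical. No treated, mutant or control animal was part of the series, and no test between groups was possible. The promoters of the 68 genes on a T cell list bore a peak in both replicates in 67 cases (Spi1 was without one). By contrast, 0 of 6 hepatocyte, 1 of 5 neuronal and 1 of 5 erythroid genes did. So did 4 of 8 B cell, 4 of 8 myeloid, 4 of 8 thymic epithelial and 4 of 8 endothelial or mesenchymal genes. The share over all coding promoters was not counted, so these counts only check the tissue label. In a whole tissue, a weaker peak can come from fewer cells with an open site or from less opening per cell, and these cannot be told apart.

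DNase I cuts DNA where nucleosomes have been displaced, mostly at promoters, enhancers and insulators. Enhancers can act on genes far away through folding of the chromosome, and genes that control cell identity often sit beside wide stretches without other genes that hold many such elements. CTCF, a zinc finger protein, binds insulators and anchors chromatin loops together with cohesin, and its site leaves a clear footprint, a short stretch shielded from DNase I inside an open region. In the thymus, developing T cells, the thymocytes, switch on genes such as Bcl11b, Gata3 and Tcf7 and rearrange their antigen receptor genes.

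The replicates stood apart in one respect that touches what follows. The strength of a peak is the authors' deposited signal, and every strength was a whole multiple of 1 step per replicate (0.00519 in replicate 1 and 0.00576 in replicate 2, tolerance 0.1 step). The rule behind that step and the read depth were not given in the sources used here, so strengths were also turned into a rank percentile among all autosomal peaks of the replicate, where 100 is the strongest. Remote peaks that match the CTCF consensus had a median percentile of 35.6 in replicate 1 and 64.3 in replicate 2, whereas those without a match had 45.6 and 49.3. The same contrast appeared in intergenic peaks 5 to 100 kb from a TSS (56.1 and 80.3 with a match, 55.7 and 62.2 without) and in introns (53.3 and 78.2 with, 54.3 and 58.3 without). Results that involve CTCF matches are therefore given for each replicate, and the part that library preparation or the animals play in this difference was not tested.

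To show the most sharply marked sequence of the remote peaks, the CTCF matches of the 8 strongest single-copy remote peaks that hold one are printed with 14 bases on each side, 5′ to 3′ along the strand of the match. Capitals mark the 12 bases of the consensus match. These sites were chosen after their values were seen.

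Bcas1 site (mm10 chr2:170319359-170319398, minus strand): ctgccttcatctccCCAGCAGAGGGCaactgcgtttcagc
Trim33 site (mm10 chr3:103383354-103383393, minus strand): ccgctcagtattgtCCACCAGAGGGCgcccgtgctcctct
Adam6a site (mm10 chr12:114587420-114587459, minus strand): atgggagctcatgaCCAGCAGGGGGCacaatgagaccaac
Ccdc54 site (mm10 chr16:50736948-50736987, minus strand): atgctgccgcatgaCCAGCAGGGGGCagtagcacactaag
Ttc8 site (mm10 chr12:99084240-99084279, plus strand): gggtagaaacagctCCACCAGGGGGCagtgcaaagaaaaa
Clvs1 site (mm10 chr4:9135954-9135993, plus strand): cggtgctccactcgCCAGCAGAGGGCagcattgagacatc
B230118H07Rik site (mm10 chr2:101472965-101473004, minus strand): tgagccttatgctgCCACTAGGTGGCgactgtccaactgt
Nabp1 site (mm10 chr1:51597169-51597208, minus strand): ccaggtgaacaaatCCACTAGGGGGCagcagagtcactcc

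The peak with the Bcas1 site had strengths of 16.5 in replicate 1 and 5.84 in replicate 2, a ratio of 0.355 between replicates 2 and 1. That with the Trim33 site had 6.79 and 7.84, and that with the Adam6a site, 1044 kb from Adam6a among the variable segments of the immunoglobulin heavy chain, had 6.97 and 7.37. The peak with the Ccdc54 site had 4.90 and 7.53, and that with the Ttc8 site had 5.90 and 4.69. The Clvs1, B230118H07Rik and Nabp1 sites lay in peaks of 4.36, 4.13 and 4.14 in replicate 1 and of 5.27, 5.45 and 5.40 in replicate 2. Of these 8 peaks, the Bcas1 and Ttc8 ones had the lower deposited value in replicate 2, although each of the 8 peaks held at least 2 footprints in both replicates.

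Whole peaks are printed next for the strongest remote peak with a CTCF match in a footprint of both replicates, the strongest without a match, and the strongest member of each of the 3 largest groups of neighbours. The strongest remote peak nearest to Gata3 was added after the values were seen, because Gata3 is a master regulator of T cells. Sequences run 5′ to 3′ on the plus strand of the reference, and capitals mark bases that lay inside footprints of both replicates.

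chromosome 8 CTCF peak (mm10 chr8:20122141-20122320, plus strand): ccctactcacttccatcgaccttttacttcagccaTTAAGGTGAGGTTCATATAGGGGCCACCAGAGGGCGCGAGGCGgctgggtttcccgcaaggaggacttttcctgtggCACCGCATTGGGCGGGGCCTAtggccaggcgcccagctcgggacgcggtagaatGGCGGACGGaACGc
Zswim6 promoter peak (mm10 chr13:107890101-107890340, plus strand): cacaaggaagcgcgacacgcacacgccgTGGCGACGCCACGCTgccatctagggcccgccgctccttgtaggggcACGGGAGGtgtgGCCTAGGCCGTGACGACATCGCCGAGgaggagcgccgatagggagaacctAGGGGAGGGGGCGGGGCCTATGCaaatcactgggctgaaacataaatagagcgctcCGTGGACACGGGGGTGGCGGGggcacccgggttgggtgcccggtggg
Bcl11b desert peak (mm10 chr12:107160161-107160360, plus strand): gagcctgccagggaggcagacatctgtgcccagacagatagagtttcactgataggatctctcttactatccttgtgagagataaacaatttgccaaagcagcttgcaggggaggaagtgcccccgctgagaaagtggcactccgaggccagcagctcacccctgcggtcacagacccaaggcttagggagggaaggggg
Map3k1 desert peak (mm10 chr13:112001261-112001460, plus strand): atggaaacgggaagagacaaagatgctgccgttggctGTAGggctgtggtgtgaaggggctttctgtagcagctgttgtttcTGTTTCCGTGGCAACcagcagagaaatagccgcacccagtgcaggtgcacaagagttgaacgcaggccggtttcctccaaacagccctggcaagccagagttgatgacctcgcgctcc
Ets1 desert peak (mm10 chr9:32928781-32928980, plus strand): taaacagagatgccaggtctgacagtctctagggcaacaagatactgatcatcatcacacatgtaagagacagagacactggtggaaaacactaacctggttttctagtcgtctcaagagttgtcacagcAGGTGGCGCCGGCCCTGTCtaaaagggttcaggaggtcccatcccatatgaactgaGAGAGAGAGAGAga
Gata3 desert peak (mm10 chr2:9594121-9594320, plus strand): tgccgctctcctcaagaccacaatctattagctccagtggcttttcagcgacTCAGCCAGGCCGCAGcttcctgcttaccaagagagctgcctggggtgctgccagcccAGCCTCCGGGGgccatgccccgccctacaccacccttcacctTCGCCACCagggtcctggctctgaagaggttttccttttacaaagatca

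The chromosome 8 peak had 76 such bases of 180, and they include its CTCF match. It lies 219 kb downstream of Gm31371, and the median copy number of its 32-base words was 2, so reads from another copy could add to it. The peak 154 kb upstream of Smim15 had 93 bases of 240 in footprints of both replicates, a G+C content of 68.3% and a ratio of observed to expected CpG of 0.891. It sits 157 bp from the TSS of Zswim6, which the GENCODE annotation types as a processed transcript and RefSeq lists as coding. In the Bcl11b desert peak 63 bases lay in replicate 1 footprints and 8 in replicate 2 footprints, with 0 bases in common. The Map3k1, Ets1 and Gata3 desert peaks had 19, 31 and 34 shared bases of 200. Thus the strongest peaks of the large groups had fewer bases footprinted in both replicates than the chromosome 8 and Zswim6 peaks. This is not a contrast with promoters, since some group peaks also sat at annotated starts. The Bcl11b desert peak lay 54 bp from the TSS of the lincRNA gene Gm16084. The Ets1 desert peak lay 85 bp from that of the lincRNA gene Gm27162. The CTCF peak was chosen for a match in a footprint of both replicates, so its count is partly set by that rule. These are single peaks and do not stand for their kinds.

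Remote peaks were sparse for the space they could occupy. The territory outside coding genes and over 100 kb from their TSSs spanned 746.4 Mb, or 31.2% of the sequenced autosomes, and held 6.05 remote peaks per Mb. Intergenic territory 5 to 100 kb from a TSS held 27.8 shared peaks per Mb (16065 peaks), and introns over 5 kb from a TSS held 23.6 (18953 peaks). Counted in each replicate alone the remote density was 10.1 and 11.9 per Mb, against 36.5 and 41.1 in the nearer intergenic territory. Density fell in each distance bin, from 33.2 per Mb at 5 to 20 kb to 11.96 at 100 to 200 kb, 7.09 at 200 to 300 kb, 4.31 at 300 to 500 kb and 1.54 beyond 500 kb. The median remote peak lay 184795 bp from its nearest TSS, and 373 lay beyond 500 kb and 48 beyond 1 Mb. Remote peaks were upstream of the nearest gene in 50.2% of cases.

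**Figure D1:**
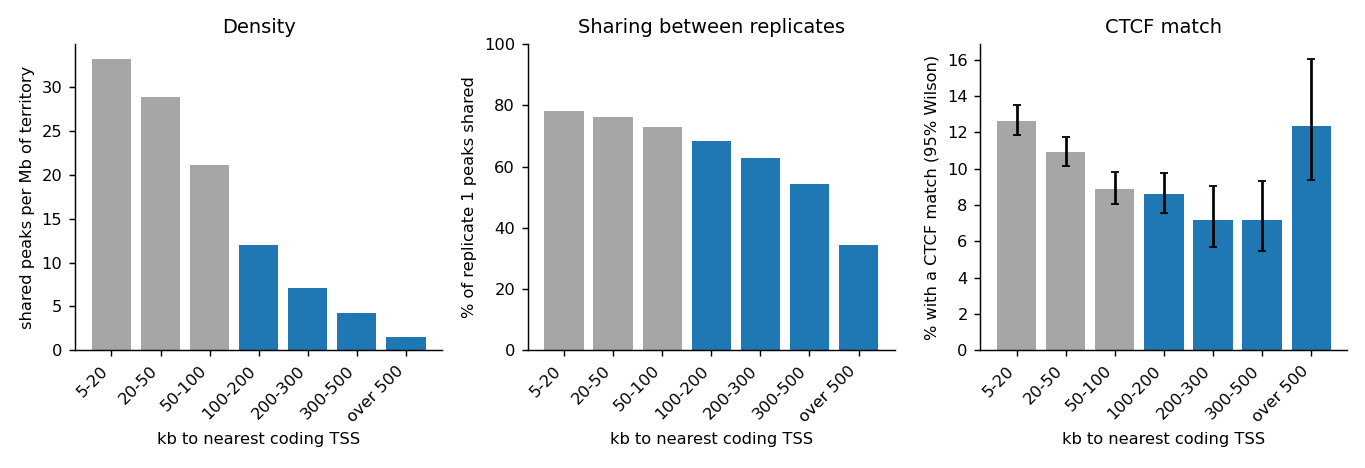
Shared peaks by distance in kb from the nearest coding TSS, with nearer intergenic peaks in grey and remote peaks in blue: peaks per Mb of territory (left), percent of replicate 1 peaks that overlap a replicate 2 peak (middle) and percent with a CTCF match, with 95% Wilson intervals (right). Density and sharing fall with distance, to 1.54 per Mb and 34.4% beyond 500 kb, while the CTCF share is 12.6% at 5 to 20 kb, 7.15% at 300 to 500 kb and 12.3% beyond 500 kb. The last bin (373 peaks, interval 9.37 to 16.1%) includes peaks among antigen receptor segments, whose part in its CTCF share was not tested.

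Remote peaks were also shared less often between the replicates. Of 7536 remote peaks in replicate 1, 59.9% (95% Wilson interval 58.8 to 61.0%) overlapped a replicate 2 peak, against 76.1% (75.5 to 76.7%) in the nearer intergenic class and 75.2% (74.6 to 75.7%) in introns. Of 8869 remote peaks in replicate 2, 50.4% overlapped a replicate 1 peak, against 66.7% and 64.5%. All such intervals reflect counting error and not the spread between animals. All autosomal peaks of replicate 1 were split by strength into 4 classes of equal size. From the weakest to the strongest class, remote peaks were shared in 33.6%, 75.8%, 92.9% and 98.4% of cases, and nearer intergenic peaks in 46.5%, 74.2%, 90.8% and 98.1%. The gap thus lay in the weakest class, which held 3800 of the 7536 remote peaks of replicate 1. Remote peaks of replicate 1 without an overlapping partner had a median percentile of 4.71, against 20.2 for such peaks of the nearer class. A base with a rate below 0.05 in the false discovery rate track of replicate 2 was touched by 11.2% and 21.996% of them. The 2 sets thus also differed in strength. Beyond 500 kb only 34.4% of replicate 1 peaks were shared.

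The shared remote peaks were weaker than other distal peaks. Their median strength was 0.701 in replicate 1 and 0.662 in replicate 2, against 0.940 and 0.990 for the nearer intergenic class, 0.899 and 0.869 for introns and 3.72 and 2.79 for TSS-proximal peaks. The nearer intergenic median was higher by 0.42 and 0.58 on the log2 scale in replicates 1 and 2. As a percentile the remote median was 47.6 ± 4.36 (SD, n = 2), against 60.1 ± 6.24 for the nearer class and 57.2 ± 4.42 for introns, and it was the lowest of the 3 in each replicate. The strongest 10% of autosomal peaks of a replicate included 3.90% and 2.95% of remote peaks (176 and 133), against 5.50% and 8.35% of nearer intergenic peaks. Remote strengths ranged from 0.0779 to 28.0 in replicate 1 and from 0.0979 to 81.2 in replicate 2, with interquartile ranges of 0.421 to 1.39 and 0.415 to 1.13. Across the 4516 remote peaks Spearman's rho between the replicates was 0.728, a description only, since the peaks come from the same pair of libraries. Both stricter lists of the authors contained 62.7% of remote peaks, against 68.6% of nearer intergenic peaks.

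**Figure D2:**
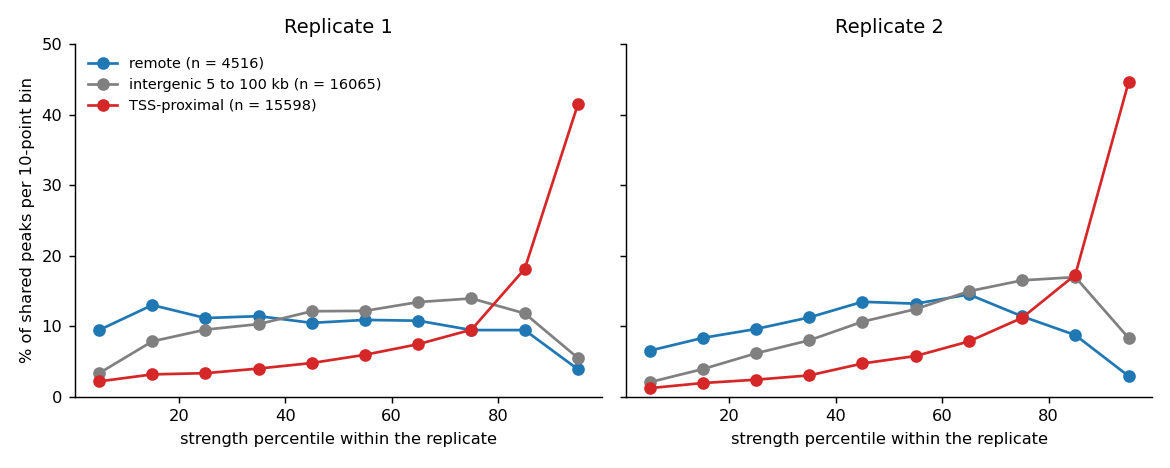
Percent of shared peaks in each 10-point bin of strength percentile in replicates 1 and 2, for remote peaks (blue), nearer intergenic peaks (grey) and TSS-proximal peaks (red). Remote peaks spread over the lower and middle bins, with medians of 44.5 and 50.7, and TSS-proximal peaks crowd into the top bin, with 41.5% and 44.6% of them there.

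In composition, remote peaks resembled other distal peaks more than promoters. The 200 bp around their midpoints had a median G+C content of 50.5% and a CpG ratio of 0.227, against 51.5% and 0.259 in the nearer class and 66% and 0.813 at TSSs, and remote territory outside peaks had a mean G+C content of 39.5%. Their median width was 180 bp in replicate 1 and 209 bp in replicate 2. Sequence present in more than 1 copy was more common among them, in 4.19% (189 peaks) compared with 2.10% of the nearer class and 0.818% of intronic peaks. Of the 189, 85 lay near antigen receptor segments, and among remote peaks away from these segments the share was 2.43%.

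The 10 strongest remote peaks by mean percentile were a mixed set, and 5 of them lay within 500 bp of the TSS of a gene not typed as protein-coding. The first was the Zswim6 peak shown above, with 27.5 in replicate 1 and 9.03 in replicate 2. The second, chr15:68363341-68363520, lay 105 kb upstream of Zfat, a zinc finger gene of lymphocytes, and 255 bp from the lincRNA Gm20732 (21.1 and 10.6). The third, chr17:39846781-39846900, lay within the ribosomal RNA gene CT010467.1, had 17.95 and 81.2, and its words had a median of 2 copies. This single peak gave the highest remote strength of replicate 2, and it held 3 footprints in replicate 1 and 0 in replicate 2. The fourth, chr3:103386821-103387000, lay 107 kb downstream of Trim33, a ubiquitin ligase of TGF-beta signalling (19.005 and 7.96). The chromosome 8 peak with the CTCF match was the fifth (13.2 and 13.6).

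Of the remaining 5, chr13:28512621-28512860 had the highest replicate 1 strength (28.0, with 6.13 in replicate 2). It lies in the desert beside Sox4, a transcription factor of early lymphocytes, with the predicted gene Gm11361 as the nearest coding TSS at 255 kb. The peak chr1:7398081-7398320, 309 kb from Pcmtd1, had 15.4 and 7.42, and its neighbour in the list, chr12:107086341-107086540, had 12.8 and 8.31 and lay 402 kb upstream of 3110018I06Rik. The peak chr9:116384321-116384520, 209 kb upstream of Tgfbr2, the TGF-beta receptor, had 13.7 and 7.53. The last, chr17:47139761-47140020, had 19.6 and 6.01. It was assigned to Ubr2 at 129 kb, but it lies 1051 bp from the TSS of Trerf1, which is again a processed transcript in GENCODE and coding in RefSeq. Except for the rRNA gene peak and the chromosome 8 peak, all of the 10 had the larger deposited value in replicate 1.

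The member farthest from any coding TSS, chr1:102628161-102628340, lay 2140278 bp upstream of the cadherin gene Cdh20. It was not weak, with 4.08 in replicate 1 and 10.9 in replicate 2, and it held 3 footprints in each replicate and no match to the CTCF consensus. At the 100 kb limit, the 3 peaks just beyond it lay at 100010 bp (Kbtbd8, strengths 0.338 and 0.207), 100209 bp (Gm15319, 0.613 and 0.599) and 100237 bp (Nxt1, 0.343 and 0.559). The 3 intergenic peaks just inside lay at 99997 bp (Ralgapa2, 0.556 and 0.708), 99965 bp (Runx1, 0.540 and 0.466) and 99956 bp (Svil, 1.78 and 1.10).

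Footprints followed strength. Replicate 2 values are those of the strongest overlapping replicate 2 peak, which 299 remote peaks shared with another. A remote peak held 2.29 footprints on average in replicate 1 and 2.81 in replicate 2 (2.70 over its 4363 distinct peaks), or 2.55 ± 0.370 (SD, n = 2), compared with 2.84 ± 0.403 in the nearer class and 2.72 ± 0.360 in introns. At least 1 footprint was present in 89.5% and 87.5% of remote peaks and in both replicates in 80.1%. Within 4 equal classes of replicate 1 strength over all shared peaks, the remote means were 1.51, 2.37, 2.90 and 3.66, and the nearer intergenic means were 1.60, 2.41, 2.96 and 3.76. In replicate 2 the remote means were 1.76, 3.11, 3.89 and 4.81, at or above the nearer means of 1.72, 2.87, 3.79 and 4.42 in every class. Of the 10336 footprints in remote peaks in replicate 1, 48.2% overlapped a replicate 2 footprint, against 56.4% in the nearer class and 52.1% in introns. The most footprints in 1 remote peak were 13 in replicate 1 and 21 in replicate 2. An example of the latter is chr4:71291201-71291420, which overlapped a replicate 2 peak over 1 kb wide, and which held 3 footprints in replicate 1.

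A match to the CTCF consensus within 100 bp of the midpoint was found in 379 remote peaks, 8.39% (7.62 to 9.24%), and in 0.0300% of the 3708808 tiles of 200 bp in remote territory outside peaks. The share was 11.1% (10.6 to 11.6%) in the nearer intergenic class, 9.38% (8.97 to 9.80%) in introns and 0.974% at TSSs. CTCF matches were the most footprinted of the more frequent sequences. Of 380 matches, 80.3% overlapped a footprint in replicate 1, 94.2% in replicate 2 and 78.7% (74.3 to 82.5%) in both, while footprints covered 14.3% and 13.9% of the bases of the windows. Among remote peaks with a match, 90.8% had the larger deposited value in replicate 2, with a median log2 ratio of replicate 2 to replicate 1 of 0.76. Among those without, 33.1% did, with a median of -0.35. From the weakest to the strongest of the same 4 classes of replicate 1 strength, the share with a match was 10.3%, 8.59%, 6.97% and 4.02%, and in the classes of replicate 2 it was 4.56%, 8.50%, 11.7% and 20.3%. Its order with strength was therefore opposite in the replicates.

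**Figure D3:**
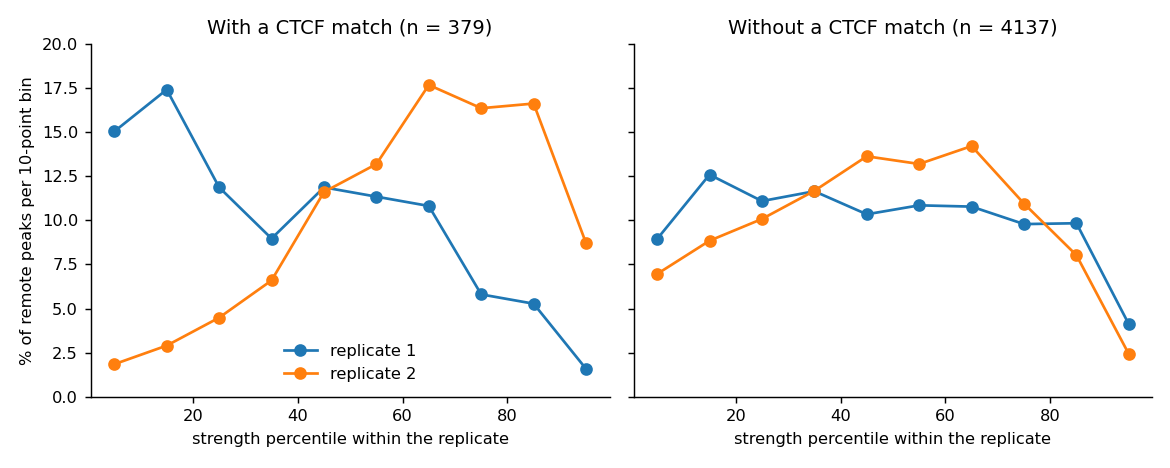
Percent of remote peaks in each 10-point bin of strength percentile, for the 379 peaks with a CTCF match (left) and the 4137 without (right), in replicate 1 (blue) and replicate 2 (orange). Peaks with a match have a median percentile of 35.6 in replicate 1 and 64.3 in replicate 2, and those without have 45.6 and 49.3.

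Of the other sequences sought, those of ETS, RUNX and E-box factors were more frequent in remote peaks than in tiles. All matches were sought on both strands of the same windows, and a match is a description of the letters and does not show binding. The ETS sequences CAGGAAGT or CAGGAAAT were in 12.0% of remote peaks and 3.14% of tiles, the RUNX sequence TGTGGTT in 11.1% and 4.32%, and the E-box CAGCTG in 22.8% and 5.81%. In the nearer intergenic class the shares of these 3 were 9.44%, 8.76% and 20.6%, and in introns they were 11.1%, 10.2% and 22.4%, close to the remote values. The SP/KLF sequence GGGCGG, common in CpG-rich promoters, was in 8.50% of remote peaks, 1.04% of tiles and 58.2% of TSS-proximal peaks. Shares close to those of the tiles were found for the TCF/LEF sequence CTTTGAT (4.61% and 4.62%), the Ikaros sequence TGGGAA (14.8% and 15.7%), the YY1 sequence AAGATGGC (1.90% and 1.95%) and the IRF consensus (3.17% and 3.68%). The AP-1 sequence TGANTCA was in 7.60% (6.86 to 8.40%) of remote peaks and 6.06% of tiles. The GATA sequence AGATAA was in 8.02% of remote peaks and 14.9% of tiles. The tiles had a lower G+C content (39.5%) than the peaks, and its part in these contrasts was not tested. The NRF1 consensus was found in 17 remote peaks (0.376%, against 0.0218% of tiles). That of REST, a repressor of neuronal genes, was found in 8 (0.177%, against 0.00178%). The NF-kB consensus was also in 8, a share near that of the tiles (0.138%).

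ETS, RUNX, E-box and TCF/LEF matches were footprinted less often than those of CTCF. ETS matches overlapped a footprint in 25.4% of cases in replicate 1, 19.1% in replicate 2 and 8.36% in both, and their bases were covered to 15.1% and 11.8%, near the 14.3% and 13.9% of the windows. For RUNX matches the 3 shares were 32.8%, 21.5% and 11.7%, and for E-boxes 23.1%, 22.5% and 10.2%. TCF/LEF matches had 44.0%, 22.2% and 16.7%, and SP/KLF matches 52.9%, 43.8% and 36.2%. Of the 8 REST matches 5 were so, and of the 22 NRF1 matches 15. In deposited strength, remote peaks with ETS, RUNX or E-box matches differed in the other direction from those with CTCF matches. Their median log2 ratios of replicate 2 to replicate 1 were -0.58, -0.70 and -0.60, against -0.28 over all remote peaks and -0.35 without a CTCF match. Of these peaks, 19.6%, 21.5% and 25.6% had the larger value in replicate 2. The direction was not particular to the 3, with -0.51 for TCF/LEF, -0.48 for AP-1, -0.44 for SP/KLF and -0.39 for GATA matches. Ikaros (-0.13), IRF (-0.24), YY1 (-0.05) and REST matches (0.20) were above -0.28. Peaks with a CTCF match held all 3 less often than remote peaks as a whole, ETS in 3.96% against 12.0%, RUNX in 6.86% against 11.1% and E-boxes in 12.9% against 22.8%.

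Remote peaks were often found in company. Another remote peak lay within 10 kb of 59.9% of them (58.5 to 61.4%), against 67.4% (66.6 to 68.1%) for nearer intergenic peaks among themselves, whose density is higher. Chained at gaps of at most 10 kb, the remote peaks formed 2686 groups, of which 1809 were single peaks and 123 had 5 or more members. Those 123 groups held 805 peaks, 17.8% of all. Of the single peaks, 40 (2.21%) had another shared peak of any class within 10 kb. Peaks of other classes can come that close only near the edge of remote territory, so the rule keeps this share low.

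Single and grouped remote peaks differed in strength and in sequence. Single peaks had median strengths of 0.509 in replicate 1 and 0.530 in replicate 2, and peaks in groups of 5 or more had 1.21 and 0.990, or median percentiles of 30.6 and 41.6 against 63.9 and 64.5. The mean number of footprints was 2.10 and 2.38 in single peaks and 2.62 and 3.43 in large groups (3.22 over distinct replicate 2 peaks). Peaks of large groups were also wider, with medians of 200 and 300 bp against 180 and 200 bp in single peaks. CTCF matches ran the other way. They were found in 13.3% (11.8 to 14.9%) of single peaks, 6.31% (5.30 to 7.49%) of peaks in groups of 2 to 4 and 2.36% (1.52 to 3.66%) of peaks in groups of 5 or more. The nearer intergenic class had the same order, with 16.2%, 10.2% and 5.06%. From single peaks to large groups, TCF/LEF matches went from 5.58% (4.62 to 6.74%) to 3.11% (2.11 to 4.54%) and SP/KLF matches from 6.63% (5.58 to 7.87%) to 9.81% (7.95 to 12.1%). Intervals overlapped for ETS (11.9% and 12.7%), RUNX (11.7% and 9.44%) and E-box matches (21.3% and 24.0%). All 8 peaks with a REST match were single.

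**Figure D4:**
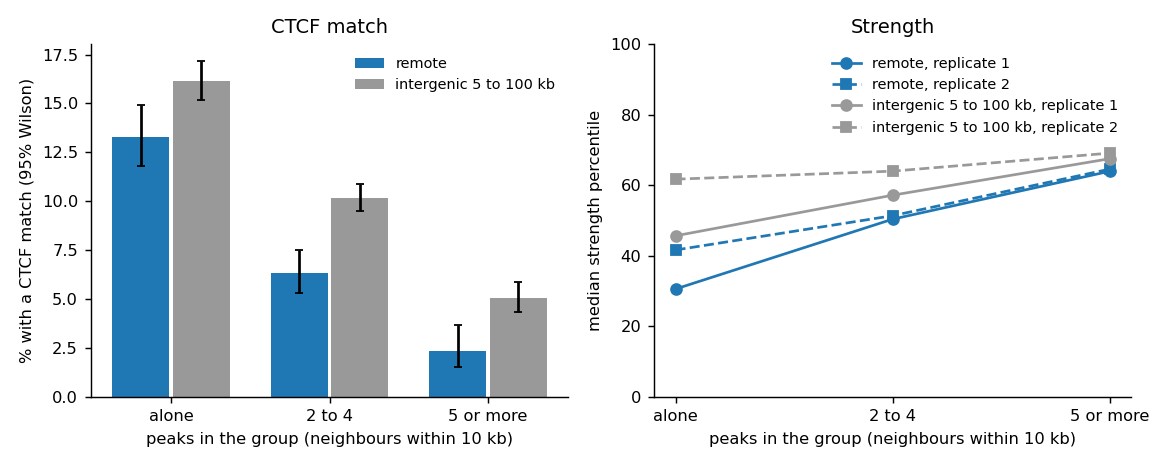
Percent of peaks with a CTCF match, with 95% Wilson intervals (left), and median strength percentile in replicate 1 (circles, solid) and replicate 2 (squares, dashed) (right), by the number of peaks chained at gaps of at most 10 kb, for remote (blue) and nearer intergenic (grey) peaks. From single remote peaks to groups of 5 or more, the CTCF share goes from 13.3% to 2.36% and the median percentile from 30.6 to 63.9 in replicate 1.

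The largest group, at chr12:107118461-107160360, held 23 remote peaks in 41.9 kb of the desert between Vrk1 and 3110018I06Rik, beyond which lies Bcl11b, the gene of a factor needed for T lineage commitment. Its strengths were 0.218 to 15.8 in replicate 1 (median 2.48) and 0.253 to 3.74 in replicate 2 (median 1.57). It held 70 footprints in replicate 1 and 81 in replicate 2, where each of the 21 overlapping peaks was counted a single time, and 0 of its peaks had a CTCF match. The next, at chr13:111967411-112004420, had 15 peaks between Map3k1, a kinase of the JNK pathway, and Ankrd55 (0.535 to 11.7 and 0.674 to 3.31). The third, at chr9:32910761-32941940, had 13 peaks downstream of Ets1, an ETS factor of T cells (1.27 to 15.997 and 0.921 to 3.85). The fourth, at chr10:19167741-19195980, had 12 peaks between Tnfaip3, an inhibitor of NF-kB signalling, and Olig3 (0.660 to 8.47 and 0.495 to 2.75). None of the peaks of these 4 groups had a CTCF match.

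The fifth group was unlike the other four. It had 12 peaks in 6.96 kb at chr12:20227061-20234020, in the desert between Gm21863 and Asap2, and all were weak, from 0.192 to 0.545 in replicate 1 and from 0.104 to 0.294 in replicate 2. It held 26 footprints in replicate 1 and 9 in the 11 overlapping peaks of replicate 2, and 2 of its peaks were in sequence of more than 1 copy.

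Remote peaks were concentrated in a few deserts. The remote territory formed 1788 intervals, of which 890 held a remote peak, and 104 intervals with 66.7 Mb (8.94% of the territory) held 50% of the peaks. Of the 208 intervals of 1 Mb or more, 83 had 0 remote peaks, and the median was 0.546 per Mb. The highest among these was 73.2 per Mb, in the interval between Olfr1507 and Dad1 on chromosome 14, which holds the variable segments of the T cell receptor alpha and delta chains. Segments are not typed as protein-coding genes in the annotation, so peaks among them count as remote. That interval had 114 remote peaks, 10 with a CTCF match, and the immunoglobulin heavy chain interval between Adam6a and Zfp386 on chromosome 12 had 100, 24 of them with a match. Together with the kappa, beta and gamma loci, 229 remote peaks (5.07%) lay within 50 kb of a receptor segment. Of these, 37.1% were in sequence of more than 1 copy, against 2.43% elsewhere, and 15.7% had a CTCF match, against 8.001%.

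Among the other deserts with many remote peaks, some flank genes known from lymphocytes and some do not. The interval from Vrk1 to 3110018I06Rik had 84 remote peaks in 1.26 Mb (66.8 per Mb). Those between Nr5a2 and Ptprc, the gene of the leukocyte antigen CD45, and between Foxo1 and Cog6 had 45 each. Between Satb1 and Kcnh8 there were 44, and between Gm11361 and Sox4 there were 42. The interval from Sall3 to Galr1 on chromosome 18 had 50 remote peaks (42.7 per Mb), that from Uaca to Tle3 had 39, that from Sdk2 to Rpl38 had 32 and that from Kif2a to Smim15 had 31. Per Mb, the short intervals between Cd24a and Qrsl1 (20 peaks, 164 per Mb) and between Rpl34 and Lef1 (29 peaks, 161 per Mb) exceeded these.

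By nearest coding TSS, the remote peaks fell to 1144 genes, 455 of them with 1 peak and 110 with 10 or more. The 20 genes with the most peaks took 661 (14.6%). Dad1 (78), Zfp386 (60), Adam6a (40) and Olfr1507 (36) flank the receptor loci, and all of their remote peaks lay within 50 kb of receptor segments. 3110018I06Rik had 66 and Vrk1 27, mostly in the desert downstream of Bcl11b, and Sall3 had 36. Ptprc had 31, all downstream of its TSS, with strengths of 0.353 to 12.9 and 0.299 to 4.84. Smim15 had 25, Gm11361 24 and Kcnh8 23, of which the last had the highest medians of the 20 genes (2.51 and 1.60). Cd83, an activation marker, Gadd45g, a stress response gene, Tbl1xr1, a cofactor of nuclear receptor corepressors, and Tle3, a Groucho corepressor, had 22 each. The remaining 5 of the 20, Foxo1, Gata3, Satb1, Ets1 and Myc, are on the T cell list.

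Remote peaks were dense near genes of the T cell list. Of its 68 genes, 23 were nearest to 280 remote peaks, 6.20% (5.53 to 6.94%) of all, on 1.22% of the remote territory. That is 30.8 per Mb, against 6.05 per Mb over all genes. Counted within 1 Mb of a gene's TSSs instead, the 34 list genes with enough remote territory had a median of 19.9 per Mb, against 4.61 over 7998 genes, and 29 of the 34 lay above the median of all genes. Families of developmental regulators, among which the cadherin and protocadherin adhesion families were also counted, had 359 genes. They were nearest to 309 remote peaks at 4.78 per Mb. The lists share 7 genes, which took 95 of those peaks. By the 1 Mb count the families had a median of 5.86 per Mb, and 56.4% of the family genes lay above the median of all genes. This list was thus below all genes by nearest TSS and above them by the wider count. Intervals between cadherin genes, such as Cdh6 to Cdh9 and Cdh8 to Cdh11, held 0 remote peaks. The density without the adhesion families was not computed. The lists of other cell types are short. The B cell list had 4 peaks, all downstream of Ebf1 (11.7 per Mb), the endothelial and mesenchymal list 10 (10.2 per Mb) and the erythroid list 2 (17.0 per Mb), each on less than 1 Mb of territory and each above 6.05 per Mb. The neuronal list had 0 on 0.395 Mb. The myeloid, thymic epithelial and hepatocyte genes were nearest to 0 Mb of remote territory, so they could have none. Within 1 Mb, the B cell list had a median of 10.8 per Mb (2 genes), the myeloid list 7.16 (3 genes), the thymic epithelial list 6.22 (3 genes) and the endothelial and erythroid lists 5.87 each, all above the 4.61 of all genes, while the hepatocyte list had 1.64 and the neuronal list 0.730. The thymic epithelial gene Psmb11 had 52 remote peaks within 1 Mb (90.8 per Mb) and the myeloid gene Lyz2 14 (57.5 per Mb), both above the T cell list's median. Such a window counts peaks by position alone, any among receptor segments included, and does not assign them to these genes.

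Within the T cell list, Foxo1, which controls naive T cell homing genes, had 27, all downstream at 100.8 to 371 kb (strengths 0.332 to 11.5 and 0.334 to 3.35). Gata3 had 26, all downstream at 186 to 1239 kb (0.291 to 8.48 and 0.167 to 2.87). Satb1, a chromatin organiser of thymocytes, had 26, of which 21 were upstream (0.348 to 6.27 and 0.282 to 3.27). Ets1 had 25, all downstream (0.213 to 15.997 and 0.213 to 3.85), and Myc, a driver of cell growth, had 23, with 14 downstream (0.197 to 7.04 and 0.196 to 2.04). The remote peaks of these 5 genes lay largely on 1 side, except for Myc, but a side can hold them only where it has remote territory. All remote territory nearest to Foxo1 (0.274 Mb) and Ets1 (0.795 Mb) lay downstream, so the annotation fixed the side of their peaks.

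Sox4 had 21 (up to 12.3 and 3.599), Lef1, a partner of beta-catenin, 19 (up to 13.0 and 3.07), Id2, an inhibitor of E proteins, 18 (up to 5.32 and 1.92) and Bcl11b 16 (up to 4.34 and 1.89). Bcl6, a repressor, and Runx1, a RUNX factor, had 12 each, and the Notch target Hes1 had 10. Prkcq, a kinase of T cell receptor signalling, had 9, Nfatc2 and Tox 8 each, and Arpp21 4. Bcl2, an inhibitor of cell death, Foxp1, Mef2c and S1pr1, the receptor for exit from the thymus, had 3 each, Ikzf2 2, and Egr2 and Nfatc1 1 each. The 280 peaks had median strengths of 1.06 and 0.789, above the 0.701 and 0.662 of all remote peaks in both replicates. Of them 6 (2.14%) had a CTCF match, and 71.4% had another remote peak within 10 kb.

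Seen from the gene, Bcl11b had the densest surroundings of the list, with 72 remote peaks within 1 Mb (103 per Mb). All 72 were downstream of its TSS, as was all of the 699999 bp of remote territory there, so the annotation fixed their side. Only 16 of the 72 had Bcl11b as the nearest coding gene in GENCODE, since 3110018I06Rik lies between. A far-downstream enhancer region of Bcl11b is known from thymocytes. Bcl6 followed with 84.0 per Mb, then Foxo1 with 81.0, Sox4 with 71.0 and Ptcra, the pre-T cell receptor alpha chain, with 66.4. The Ptcra value rests on 17 peaks in 255865 bp. Such windows can also count peaks at genes that GENCODE does not type as coding and RefSeq does, such as Trerf1. By RefSeq, 16 remote peaks were assigned to Trerf1, and how many of the 17 peaks around Ptcra are among them was not counted. At the other end, Cd8a, Cd8b1, Themis and Ikzf1 had 0 remote peaks within 1 Mb, although 318805, 369444, 292070 and 559682 bp of remote territory were available there. Of the 7998 genes, 1954 (24.4%) had 0. Remote peaks near these genes were not detected in both replicates, which does not bear on elements closer to them.

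**Figure D5:**
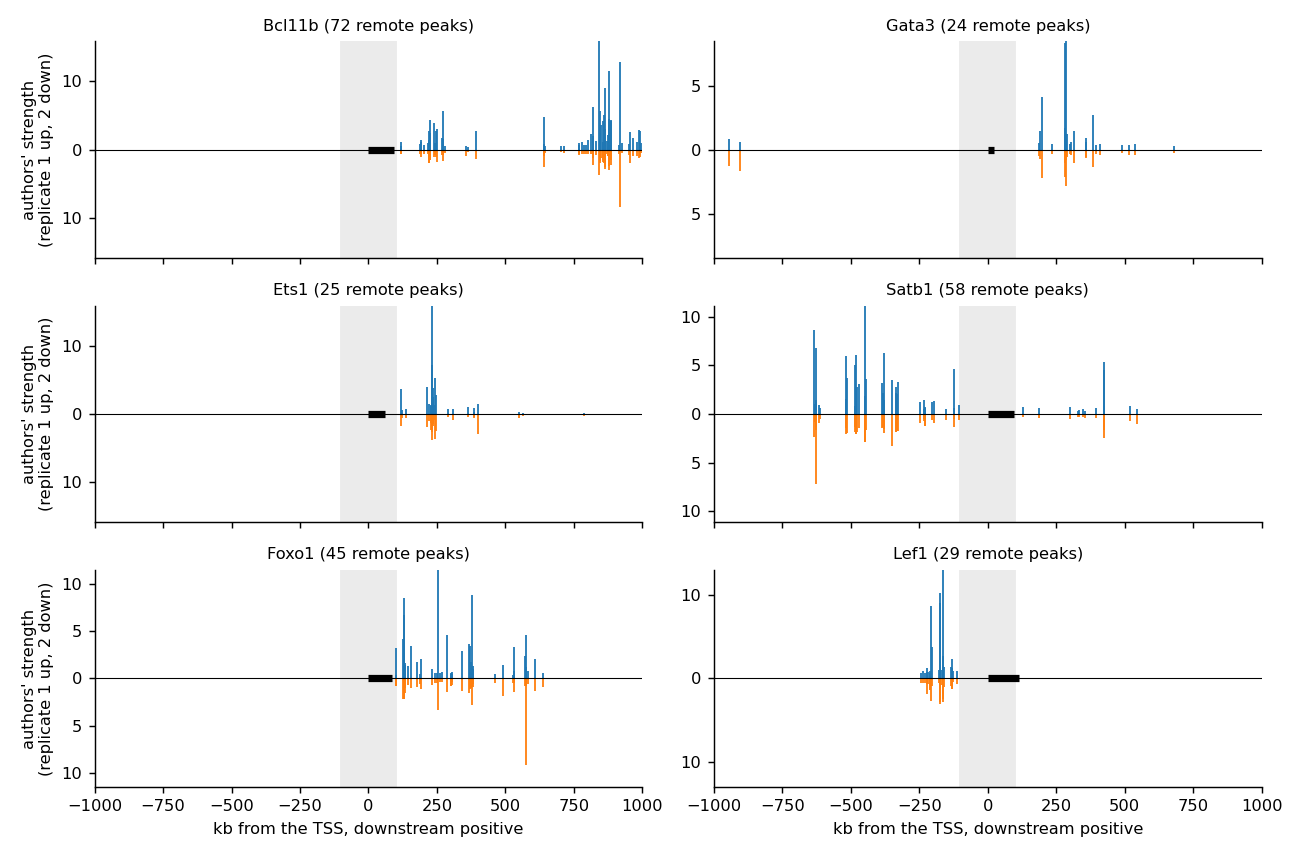
Remote peaks within 1 Mb of 6 genes of the T cell list, by distance in kb from the most upstream TSS (downstream positive), with deposited strength in replicate 1 upward and in replicate 2 downward; the black bar is the gene and grey shading the 100 kb to each side of that TSS, and each panel has its own vertical scale. All remote peaks of Bcl11b (72), Ets1 (25) and Foxo1 (45) lie downstream and all 29 of Lef1 upstream, while Gata3 has 22 of 24 downstream and Satb1 14 of 58. A side can hold remote peaks only where it has remote territory, and all such territory of Bcl11b lies downstream.

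Remote from coding genes did not mean remote from every annotated gene. The midpoint lay inside another kind of gene in 1060 remote peaks (23.5%), mainly lincRNA genes (775), and within 500 bp of the TSS of such a gene in 348 (7.71%), of which 145 were at lincRNAs and 57 at T cell receptor variable segments. Those 348 had median strengths of 0.901 and 0.691, against 0.691 and 0.662 for the other 4168. They held the SP/KLF sequence more often (15.5%, interval 12.1 to 19.7%, against 7.92%, 7.14 to 8.78%), and 19.8% of them were in sequence of more than 1 copy, against 2.88%. Measured against the curated coding transcripts of RefSeq, 4429 of the 4516 peaks (98.1%) were still remote. Of the other 87, 16 were assigned to Trerf1 and 14 to Zswim6, and 14 of the 87 lay within 500 bp of a RefSeq coding TSS.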

How the data were processed

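Peaks, false discovery rates and footprints were deposited by the authors for each replicate separately on mm10, per the file headers and listings. The aligner, the callers and the mapping of CAST alleles were not given in the sources used here. Strength is the signal column deposited by the authors. The track's deposited p-value column gives the authors' q-value per run of bases, listed below 0.05. The other deposited column, of footprints, is constant at 0.01, so positions alone were used. The longer peak list was used, and the shorter one served as the stricter alternative.

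Gene models were those of GENCODE M21 (basic set) and, as a check, RefSeq, and sequence from GRCm38.p6, the assembly of mm10. A footprint belonged to a peak that held its midpoint. Motifs were sought in 200 bp about the midpoint and in 200 bp tiles of remote territory outside peaks. Copy number was the median count of a peak's 32-base words on 21 chromosomes. Intervals are 95% Wilson intervals. With 1 group, no test was made and depth is unknown. The functions for overlap, annotation, footprints and motifs were tested on simulated data. Python 3.11.15, pandas 2.3.3, numpy 2.4.6, numba 0.67.0 and matplotlib 3.10.9 were used.

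The members, gene lists, motifs and rules for named items were chosen with earlier results of these data known. Named were the 10 strongest members by mean percentile, the 5 largest groups, the 20 genes nearest to most members, T cell list genes nearest to any member, the farthest member and those next to the distance limit.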

Additional observations from a re-analysis of the deposited data

How the results depend on the processing

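With replicate 2 peaks as the starting list, all 7 results stayed near their reported values (4471 peaks). The stricter lists gave 2837 remote peaks, 3.80 per Mb, 2.97 footprints per peak, a CTCF share of 9.27% and 53.3% with a neighbour. A limit of 200 kb gave 2004 peaks, 3.74 per Mb, 56.9% with a neighbour and 7.68% nearest to T cell list genes. Counting every annotated gene, noncoding included, left 362 peaks, 2.12 per Mb, a median percentile of 38.5, a CTCF share of 11.0%, 43.4% with a neighbour and 5.25% nearest to T cell list genes. A reciprocal overlap of 50% gave a CTCF share of 10.7% and 48.2% with a neighbour. The looser CTCF consensus matched 13.4% of peaks. Neighbours were found for 50.1% of peaks within 5 kb and 72.7% within 25 kb. With nearest genes from RefSeq, chosen after seeing the data, 7.53% were nearest to T cell list genes.

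Using all remote peaks of 1 replicate, which also drops the need for a shared peak, gave 7536 to 8869 peaks, 10.1 to 11.9 per Mb, median percentiles of 24.6 to 25.8, 1.68 to 1.76 footprints, CTCF shares of 5.16 to 6.596%, 56.7% with a neighbour either way and 4.70 to 5.12% nearest to T cell list genes. Of 77 alternative values, 42 stayed within 1.5 times the count or density, the SD of the replicates or the counting interval. Leaving out peaks near receptor segments or in sequence of more than 1 copy, both chosen after seeing the data, moved none of the 7 results beyond these limits. The territory was left unchanged in both. No paired analysis was possible because the samples form 1 group.

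Depth is unknown, and with 2 libraries the SD is itself imprecise. Nearest genes are assignments by distance on an annotation, and matches are letters, not binding.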

Other observations

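Remote peaks with a CTCF match lay a median of 2462 kb from the next one on the same chromosome, and 176 matches were on the plus strand and 204 on the minus strand. Of 131 neighbouring pairs within 1 Mb, 21 faced each other, 29 faced away and 81 were on the same strand.

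Some remote peaks were far stronger in 1 replicate, and they were chosen after their values were seen. The peak chr14:104715721-104715960, 193 kb upstream of Rnf219, had 0.722 in replicate 1 and 4.998 in replicate 2, with a median of 7 copies of its words. In the other direction, chr16:95869541-95869780 and chr16:95870361-95870640, both about 120 kb downstream of Psmg1, had strengths of 20.4 and 15.6 in replicate 1. Their replicate 2 strengths were 3.43 and 2.68. The peak chr6:31216341-31216960, inside the lincRNA gene Lncpint, held 11 footprints in replicate 1 and 15 in replicate 2.

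Kdr, a receptor of endothelial growth factor, was the nearest coding gene of 7 remote peaks, all downstream at 107 to 186 kb, with strengths of 0.493 to 1.69 in replicate 1 and 0.386 to 2.61 in replicate 2. By chromosome, remote density ran from 3.28 per Mb on chromosome 4 to 9.55 on chromosome 13. Without members near receptor segments, but over the same full territory, chromosome 12 went from 9.22 to 7.26 per Mb and chromosome 14 from 7.31 to 4.71. The territory of the segments was not taken out, so these are not densities away from them.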
